A study of Homo sapiens with 8 samples.

Results

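Glycolysis turns glucose into pyruvate and lactate, and 10 genes of this pathway were followed by the genomic windows that contain their transcription starts: SLC2A3, HK2, PFKFB3, PFKP, ALDOA, GAPDH, ENO1, PKM, LDHA and PDK1. The measurement was SON TSA-seq, in which an antibody to SON, a scaffold protein of nuclear speckles, directs the deposition of biotin on nearby chromatin, so that DNA lying close to speckles is recovered in excess. The cells were 786-O, a human line derived from clear cell renal carcinoma, grown in RPMI medium with serum under atmospheric oxygen. They received DMSO vehicle or 2 µM PT2399, an inhibitor of HIF-2α, and all were collected after 3 h. Each treatment had 2 SON pulldowns and 2 inputs, 8 libraries in all. In 4 of the 8 libraries the title disagreed with the antibody or treatment entry, and the titles were followed.

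The members were chosen as named genes of the pathway, with a start position for each on hg19 given to the nearest kb. These starts lie on chromosome 12 at 8.089 Mb (SLC2A3) and 6.644 Mb (GAPDH), on chromosome 10 at 3.11 Mb (PFKP) and 6.245 Mb (PFKFB3), and on chromosome 2 at 75.06 Mb (HK2) and 173.421 Mb (PDK1). The others lie on chromosome 16 at 30.077 Mb (ALDOA), chromosome 11 at 18.416 Mb (LDHA), chromosome 1 at 8.939 Mb (ENO1) and chromosome 15 at 72.524 Mb (PKM). The deposited data tile the genome 9 times with 100 kb windows, each tiling displaced by 10 kb, and 9 times with 50 kb windows displaced by 5 kb. Each start therefore lies in 9 windows of either size, which gave 90 of 278316 windows at 100 kb and 90 of 556938 at 50 kb. These 9 windows overlap and come from the same libraries, so that their range shows how the value depends on the placement of the window and is no replicate error. Every value is a log2 concentration of SON signal, given by the authors as 1 mean for each treatment, and a change is the PT2399 value minus the DMSO value. The error attached to a change is the false discovery rate (FDR) that the authors deposited for each window, and a window was called when this was 0.01 or less. No value per library was analysed, so the depth behind each value is unknown, and nothing in the labels tells if replicates came from separate cultures, so that the FDR may measure only technical spread between these libraries. The signal is an average over a population, so a small shift in all cells and a larger one in some of them cannot be told apart.

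786-O cells lack functional VHL, the protein that marks HIF-α subunits for destruction, and their hypoxia program is driven by HIF-2α. Many glycolytic genes are textbook targets of HIF as a family. HIF dimers bind the core letters ACGTG or GCGTG in the regulatory DNA of such targets. The induced enzymes raise the flow from glucose to lactate. These letters are given for HIF dimers in general and do not single out HIF-2α. Whether HIF-2α drives the genes followed here in these cells was not tested. Nuclear speckles are bodies rich in splicing factors, and gene-dense, highly transcribed chromatin tends to lie near them.

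The SON level in DMSO was above the median of measured windows at 8 of the 10 starts, at that median at LDHA and below it at PDK1, and at most of them the SON signal was slightly lower with PT2399, as it was across the measured genome. At 100 kb the change, averaged over the 9 windows, was below 0 at 9 of the 10 starts and ranged from -0.53 at HK2 to 0.17 at PDK1, with a median of -0.17. Over all windows with a log2 value of 2 or more in each treatment, called measured windows, the median change was -0.13 and 67.5% of changes were below 0. Calls were few: PFKP, ALDOA and PFKFB3 each had at least 1 lower window at 100 kb in the authors' deposited tables, and SLC2A3 had 1 at 50 kb. No member had a window called higher at either size.

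These counts were read against the same counts at genome positions where all 9 windows were measured, since a gene with 9 windows has 9 occasions to be called. At 100 kb 3 of 10 members had a lower call, and 5.5% of such positions did. Among positions at a member's own level the share ran from 2.81% (LDHA) to 10.7% (ENO1). It was 7.44% for PFKP, 7.91% for ALDOA and 4.57% for PFKFB3. At 50 kb 1 of 10 members had one, against 1.56% of positions. By window, 4 of the 90 member windows were called lower at 100 kb, or 4.44%, against 1.55% of measured windows, and 1 of 90 at 50 kb, or 1.11%, against 0.357%. Of the 4, 2 were at ALDOA, at whose level 4.47% of 100 kb windows were called lower. The members were chosen with earlier results of these data known, so these counts describe the 10 genes and are no test of the pathway. Higher calls occurred at 0.401% of positions at 100 kb and 0.133% at 50 kb, against 0 of 10 members from the authors' deposited DiffBind results. Without adjustment, at a p below 0.05, 8 members at 100 kb and 6 at 50 kb had a lower window, against 37.3% and 28.0% of positions. At this p 0 members had a higher window at either size, against 6.7% and 6.64% of positions. These shares without adjustment cover positions of every measured level and were not matched to the levels of the members, most of which lay above the median.

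The upstream DNA of members at which the results differ is shown to place the HIF core letters in them. RefSeq promoter windows on GRCh38.p14 were at hand for 9 of the 10 genes, with several alternative starts for some, 18 windows in all; SLC2A3 had none in the table. Each sequence holds the 250 bases before a start, 5′ to 3′ on the gene's strand, with ACGTG and GCGTG on either strand in capitals (read on the other strand they appear as CACGT and CACGC, and CACGTG holds ACGTG on both strands). HK2, chr2:74833877-74834126 on the plus strand, had the lowest mean change at 100 kb. ALDOA, chr16:30064029-30064278 on the plus strand, and PFKFB3, chr10:6144671-6144920 on the plus strand, each had a called window. LDHA, chr11:18394313-18394562 on the plus strand, had the most copies of ACGTG in a single window and no call. Coordinates were not converted between builds, so which of a gene's RefSeq starts matches its hg19 position was not determined. For PFKFB3 these starts lie 58.0 kb apart, and the printed window may belong to a start other than the one followed here.
HK2: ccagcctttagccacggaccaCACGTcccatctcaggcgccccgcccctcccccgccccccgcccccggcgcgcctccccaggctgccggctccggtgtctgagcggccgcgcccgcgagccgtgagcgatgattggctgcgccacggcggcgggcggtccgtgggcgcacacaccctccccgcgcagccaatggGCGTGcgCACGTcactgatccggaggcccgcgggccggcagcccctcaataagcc
ALDOA: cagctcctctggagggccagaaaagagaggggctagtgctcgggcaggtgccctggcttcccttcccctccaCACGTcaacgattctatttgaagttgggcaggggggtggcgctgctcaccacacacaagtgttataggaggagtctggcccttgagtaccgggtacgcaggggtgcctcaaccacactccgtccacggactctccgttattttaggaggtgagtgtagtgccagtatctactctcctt
PFKFB3: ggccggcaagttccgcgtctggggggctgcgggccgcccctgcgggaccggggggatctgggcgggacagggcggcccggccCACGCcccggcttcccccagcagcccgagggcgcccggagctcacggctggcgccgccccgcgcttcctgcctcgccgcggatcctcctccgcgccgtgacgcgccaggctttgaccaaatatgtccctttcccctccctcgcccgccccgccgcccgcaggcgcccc
LDHA: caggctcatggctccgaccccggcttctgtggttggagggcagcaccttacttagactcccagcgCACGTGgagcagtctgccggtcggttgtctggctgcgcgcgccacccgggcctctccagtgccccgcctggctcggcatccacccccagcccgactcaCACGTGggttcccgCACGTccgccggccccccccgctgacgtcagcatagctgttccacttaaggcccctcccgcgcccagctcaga

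Counted on both strands, ACGTG occurred 5 times in the LDHA sequence, where CACGTG began 185 and 87 bases before the start. It occurred 2 times in the HK2 sequence, at 229 and 48 bases, beside 1 GCGTG at 55 bases, and 1 time in that of ALDOA, at 178 bases. The PFKFB3 sequence held 1 GCGTG, at 168 bases, and the window of the other PFKFB3 start, further along the gene, held CACGTG at 108 bases. Over all member windows, 10 of 18 (55.6%) held ACGTG, against 18.5% of the 35116 promoter windows in the table. By gene, 7 of the 9 (77.8%) had it in at least 1 window, against 21.7% of all 27305 genes with an entry; several members have more than 1 window, some of them overlapping. GCGTG was in 6 of 18 windows (33.3%), against 32.2%, and by gene in 5 of 9 (55.6%), against 36.2%. The PKM window held neither. CACGTG was present in windows of ALDOA and PFKFB3, which had a called SON window, and of LDHA, GAPDH and HK2, which had none at their starts. None of the 4 promoter windows of PFKP held CACGTG, and PFKP had a called SON window as well. A second HK2 window, not printed, held 4 copies of ACGTG and 2 of GCGTG. A promoter window is a very small part of a 100 kb window, and the matches are letters in a sequence, not measured binding.

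SON levels spread the members over a wide range, which is shown by the plot of levels at the 10 starts. ALDOA, which splits the phosphorylated fructose into triose phosphates, had a DMSO level of 11.63 as the mean of its 9 windows at 100 kb. GAPDH, which oxidises glyceraldehyde phosphate, followed with 11.54. Their DMSO windows ran from 11.52 to 11.73 and from 11.41 to 11.62, so that the ranges overlapped, and both stood above at least 99% of all windows of a set (99.5 and 99.4 as mean percentiles). ENO1, the enolase that makes phosphoenolpyruvate, stood at 10.58, and its windows overlapped neither these nor those of PFKP. PFKP at 9.94 and PKM at 9.75 came next and overlapped in their windows. PFKFB3 at 9.31, HK2 at 9.15 and SLC2A3 at 9.13 overlapped each other and lay apart from PKM, since the highest PFKFB3 window, 9.46, lay below the lowest of PKM, 9.50. LDHA, at 8.51, lay at the median of measured windows, which was 8.54, and below all windows of SLC2A3. PDK1 had the lowest level, 6.55, with windows from 5.90 to 6.99. It was still above 73.8% of all windows, because most of the genome lies at the floor of the scale, and it stood at the 19.4th percentile of measured windows. The sources used here do not give whether the deposited levels were corrected by the inputs.

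**Figure D1:**
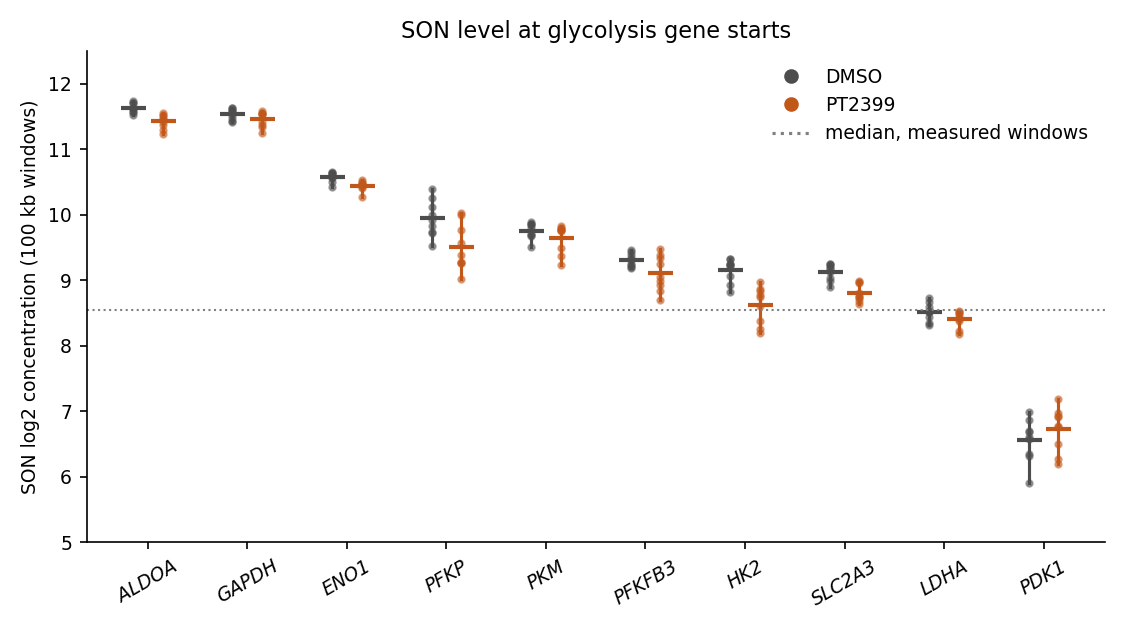
SON log2 concentration in 100 kb windows that contain each gene start (vertical axis, starting at 5), for DMSO in grey and PT2399 in orange; points are the 9 window placements, vertical lines their range and horizontal bars their mean, and the dotted line is the median of measured windows. ALDOA and GAPDH sit near 11.5, PDK1 is the lowest at 6.55 with DMSO, and the PT2399 mean is below the DMSO mean at all genes but PDK1.

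The smallest change that was called depended on the level. Among windows within 0.25 of a member's own mean level, the smallest lower change that was called was -0.19 at the level of ALDOA and of GAPDH, -0.28 at that of ENO1, and -0.34 and -0.39 at those of PFKP and PKM. It was -0.46 at the level of PFKFB3, -0.59 at that of SLC2A3, -0.58 at that of HK2 and -0.77 at that of LDHA. At the level of PDK1 it was -2.66. For LDHA and PDK1, the lower changes in 100 kb windows at the other starts were smaller in size than any called at their levels. These values are no fixed limit. At HK2 a window with a change of -0.72 was not called, with an FDR of 0.0506 in the authors' deposited table. The quartiles of all changes at the same level followed the same order, from -0.13 and -0.03 at ALDOA to -0.83 and 0.55 at PDK1. The plot of change against level shows this narrowing, with the members placed in it.

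**Figure D2:**
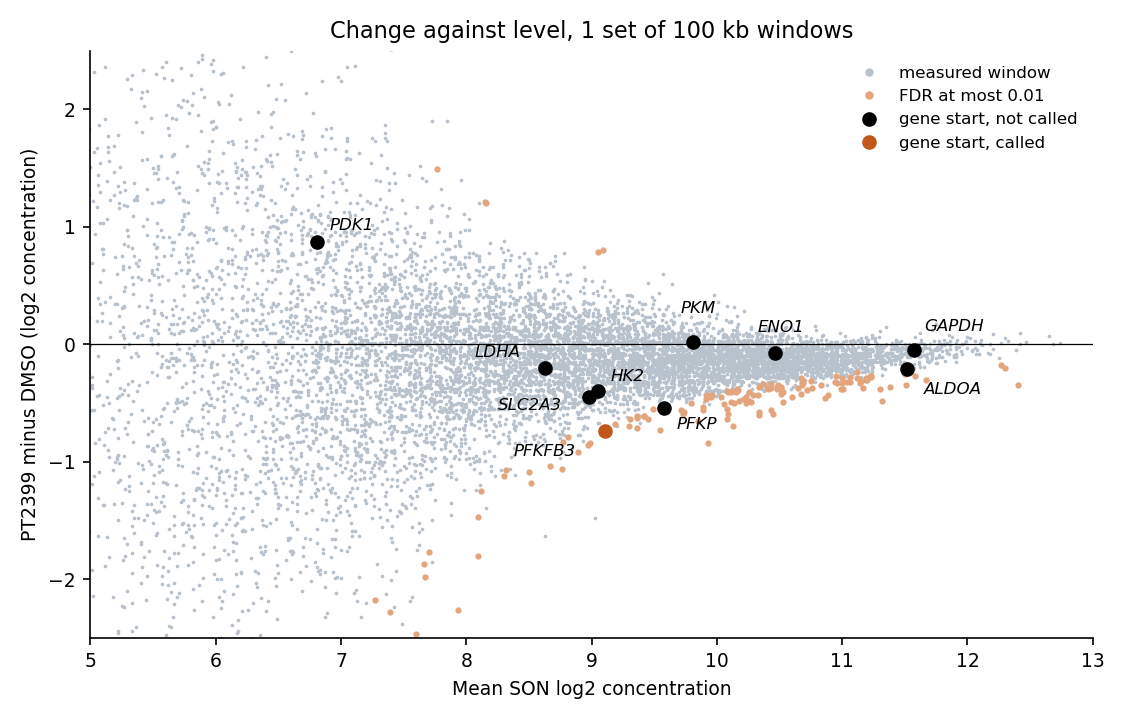
Change (PT2399 minus DMSO, log2 concentration) against mean SON log2 concentration for 1 of the 9 sets of 100 kb windows; grey points are measured windows, pale orange points windows with an FDR of 0.01 or less, and large points the windows holding a gene start (orange where called). The axes leave out 629 of 10042 measured windows; PFKFB3 is the called member in this set, with a change of -0.74, and PDK1 stands at 0.87 among widely spread windows of low level.

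Glucose uptake and trapping are the steps of SLC2A3 and HK2. SLC2A3 encodes the glucose transporter GLUT3. Its 9 windows at 100 kb had DMSO levels of 8.90 to 9.25 and PT2399 levels of 8.63 to 8.98, and all 9 changes were below 0, from -0.50 to -0.09, with a mean of -0.32. None of these was called, and the lowest FDR was 0.0857 in the authors' deposited tables. At 50 kb the change was larger: 8 of 9 windows were lower, with a mean of -0.69, so that 61.9% of the DMSO level was left. The window at 8075001 to 8125000 had 8.49 with DMSO and 7.40 with PT2399, a change of -1.09 or 47.0% of the DMSO level, for which the authors' deposited table gives an FDR of 0.00703. The remaining 50 kb window, which covers almost only lower coordinates (8040001 to 8090000), stood at 7.99 with DMSO and had a change of 0.01. The lower signal thus lay at and just above the start in coordinate. It did not extend evenly: the authors' deposited tables give a change of 0.58, with an FDR of 0.229, for the 50 kb window centred 61 kb above the start, while the median over measured 50 kb windows within 250 kb was -0.39. SLC2A3 has a close paralog, SLC2A14, beside it, and the sources used here do not give how reads that match both were treated.

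HK2 encodes hexokinase 2, which phosphorylates glucose and keeps it in the cell. It had the lowest mean change of the members at 100 kb, -0.53, or 69.4% of the DMSO level, with DMSO windows of 8.82 to 9.32 and PT2399 windows of 8.20 to 8.97. All 9 changes lay between -0.72 and -0.35. None was called: the lowest FDR was 0.046 in the authors' deposited tables, for a window that went from 9.22 to 8.61. At 50 kb the mean change was again -0.53, and the lowest FDR was 0.28 in the authors' deposited tables. The lowest 50 kb window within 100 kb of the start was centred 35 kb below it in coordinate, at 7.68 with DMSO and 6.13 with PT2399, with an FDR of 0.0646 in the authors' deposited table. A called 100 kb window ended 130 kb below the start, at 74830001 to 74930000, and its change was -0.81, with 0.00266 as the FDR in the authors' deposited table. The authors' list of genes at lower 100 kb windows holds SEMA4F and M1AP, protein-coding neighbours of HK2 on that side, and not HK2.

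Phosphofructokinase is the committed and most regulated step, and PFKP and PFKFB3 both belong to it. PFKP encodes the platelet isoform of the enzyme. It was lower in all 9 windows at 100 kb and all 9 at 50 kb, with means of -0.43 and -0.48, or 74.0% and 71.9% of the DMSO level. The 100 kb changes lay between -0.54 and -0.27, with DMSO levels of 9.52 to 10.39 and PT2399 levels of 9.02 to 10.02, so that the ranges overlap although each window was lower with PT2399. Of the 9 windows, 1 was called, at 3050001 to 3150000, where DMSO had 9.91 and PT2399 9.38, and the authors' deposited table gives an FDR of 0.00954. At 50 kb the lowest FDR was 0.0609 in the authors' deposited tables. The call thus lies close to the threshold, and the size of the change depended on the placement: the smallest, -0.27, was in the window from 3080001.

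PFKFB3 encodes the enzyme that makes the sugar bisphosphate activating phosphofructokinase. Here the change depended on where the window lay. With nearly all of the window at lower coordinates than the start (6150001 to 6250000), DMSO and PT2399 both stood at 9.25. With nearly all of it at higher coordinates (6240001 to 6340000), DMSO had 9.43 and PT2399 8.69, a change of -0.74 with an FDR of 0.00289 by the authors' deposited table. The 5 windows that start from 6200001 onward had changes of -0.16, -0.21, -0.31, -0.47 and -0.74 as they moved up in coordinate, and the other 4 lay between 0.00 and 0.02. The 50 kb windows with the start in them gave a mean of -0.02, from -0.19 to 0.16, and a lowest FDR of 0.716 in the authors' deposited tables. The lower signal lay beyond the start: the 50 kb window at 6290001 to 6340000, 45 kb above it, had 8.30 with DMSO and 6.47 with PT2399, a change of -1.83 with an FDR of 9.82e-05 by the authors' deposited table. PFKFB3 lies on the plus strand, so this is the downstream side. The called 100 kb window held the PFKFB3 start 5 kb from its lower edge, and no 50 kb window with the start was called. PFKFB3 is in neither of the authors' gene lists, and the sources used here do not give how genes were assigned to windows.

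**Figure D3:**
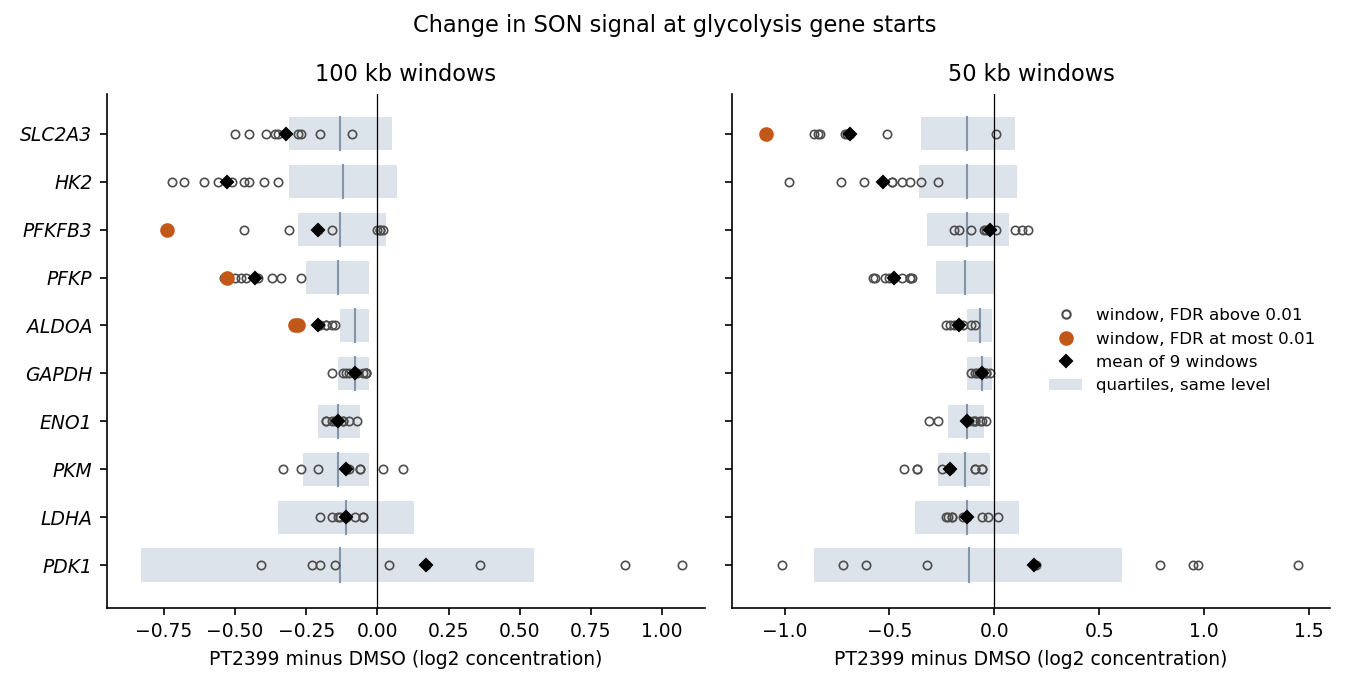
Change (PT2399 minus DMSO, log2 concentration; horizontal axis) at each gene start in 100 kb windows (left) and 50 kb windows (right). Circles are the 9 window placements, filled orange where the authors' FDR is 0.01 or less, diamonds their mean, and grey bars the quartiles of windows within 0.25 of the same level with a line at the median; the means of HK2, PFKP, ALDOA and SLC2A3 lie below their bars at 100 kb, SLC2A3 reaches -1.09 at 50 kb, and GAPDH, ENO1 and LDHA lie on the medians.

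The enzymes of the lower part of the pathway are ALDOA, GAPDH, ENO1 and PKM. ALDOA had the lowest FDR of the 10 genes at a small change. Its 9 windows at 100 kb lay at 11.52 to 11.73 with DMSO and at 11.23 to 11.55 with PT2399, and their changes lay between -0.29 and -0.15, with a mean of -0.21 or 86.7% of the DMSO level. The window at 30070001 to 30170000 had 11.52 with DMSO and 11.23 with PT2399, and the authors' deposited tables give it an FDR of 0.000261. A neighbour displaced by 10 kb was called as well, with 0.000584. At 50 kb no window with the ALDOA start was called, with a mean of -0.17 and a lowest FDR of 0.114 in the authors' deposited tables. The called 50 kb windows lay on either side, centred 58 to 68 kb above the start with changes of -0.46 to -0.37, and 77 and 82 kb below it with -0.33 and -0.32, in the authors' deposited tables. Within 250 kb of the start, 10 of 45 windows of 100 kb were called lower. Of all measured 100 kb windows 1.55% were, and 4.47% of those at the level of ALDOA. The called windows overlap, in runs centred 107 to 57 kb below the start and 33 to 93 kb above it. The authors' 100 kb gene list holds 9 of the 10 nearest protein-coding neighbours of ALDOA, against 4.29% of the protein-coding genes in RefSeq. Among them are MAPK3, the kinase ERK1, and TBX6, a T-box transcription factor. Neighbouring genes can share windows, so these entries are not separate observations.

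GAPDH had nearly the same level as ALDOA and a smaller change. Its 100 kb changes lay between -0.16 and -0.04, with a mean of -0.08, or 94.5% of the DMSO level, and a lowest FDR of 0.233 in the authors' deposited tables. The ranges of the changes at the pair of genes shared only -0.16 to -0.15, and the difference between the genes was not tested. At this level the median change was -0.08, so that GAPDH sat on it. ENO1 was lower in all 9 windows, from -0.18 to -0.07 with a mean of -0.14, which equalled the median of -0.14 at its level, and its lowest FDR was 0.239 in the authors' deposited tables. The nearest called window began 111 kb above the ENO1 start, at 9050001 to 9150000, and had a change of -0.40 with an FDR of 0.00271 by the authors' deposited table. The authors' 100 kb list holds SLC2A7 and SLC2A5 on that side of ENO1, sugar transporter genes of the GLUT family, of which SLC2A5 carries fructose. PKM, the pyruvate kinase gene, had a mean change of -0.11 over windows from -0.33 to 0.09, again near the median of -0.14 at its level. The 3 PKM windows reaching furthest to higher coordinates had changes of -0.33, -0.27 and -0.21 and the other 6 lay between -0.11 and 0.09, with a lowest FDR of 0.214 in the authors' deposited tables. PKM is on the minus strand, so that its higher coordinates are the upstream side.

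LDHA and PDK1 decide the fate of pyruvate: lactate dehydrogenase A reduces it to lactate, and pyruvate dehydrogenase kinase 1 holds back its entry into mitochondria. LDHA was lower in all 9 windows at 100 kb, from -0.20 to -0.05 with a mean of -0.11, which is the median of its level, and its lowest FDR was 0.655 in the authors' deposited tables. No lower window was called within 1 Mb of it. At distances of -756 to -716 kb from the LDHA start, towards lower coordinates, 5 windows of 100 kb were called higher: they stood at the floor, -0.07, with DMSO and at 6.94 to 7.39 with PT2399, with FDRs down to 4.75e-05 in the authors' deposited tables. PDK1 was the only member with a mean above 0, at 0.17, but 4 of its 9 windows were below 0 and the range ran from -0.41 to 1.07. The window with the lowest FDR had 5.90 with DMSO and 6.97 with PT2399, and its FDR by the authors' deposited table was 0.663. At 50 kb the PDK1 changes ran from -1.01 to 1.45. No direction can be read at PDK1, and in windows whose middle 50% holds the start the mean was -0.06 at 100 kb and 0.46 at 50 kb.

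Against windows of the same mean level, 4 members stood low and 6 stood near the middle, as means over their 9 windows. Of the windows within 0.25 of the same level, 6.03% had a lower change than PFKP, as the mean over the 9 sets at 100 kb, 7.13% than ALDOA and 9.03% than HK2. For ALDOA this depended on the width, and with levels within 0.5 it was 12.1%. For SLC2A3 the figure was 25.8% at 100 kb and 11.2% at 50 kb. For the other 6 members it lay between 45.8% (PFKFB3) and 60.3% (PDK1) at 100 kb. Over the 9 windows the share ran from 0.71% to 77.6% at PFKFB3 and from 13.8% to 91.5% at PKM. At LDHA it stayed between 41.1% and 54.9%. At 50 kb PFKP stood at 7.21%, HK2 at 16.3%, ALDOA at 17.4% and PFKFB3 at 63.2%. Relative to the median of windows of the same level, the changes at 100 kb were -0.40 for HK2, -0.30 for PFKP, -0.19 for SLC2A3 and -0.13 for ALDOA. LDHA, ENO1 and GAPDH were at 0.00 on this scale, PKM at 0.03 and PFKFB3 at -0.08. When the mean of the 9 windows was set against the same mean at all positions of that level, 2.65% of positions were lower than PFKP, 4.8% than ALDOA, 5.1% than HK2 and 21.5% than SLC2A3, and at 50 kb 3.05% were lower than SLC2A3. These shares describe where the genes lie and carry no p-value.

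A lower signal at a start was in several cases part of a lower neighbourhood. Over measured 100 kb windows centred within 1 Mb, the median change was -0.42 around PFKP, against -0.43 at its start, and -0.37 around SLC2A3, against -0.32 at its start. Around HK2 it was -0.27 and around ALDOA -0.13, less than the -0.53 and -0.21 at their starts. Within 250 kb, though, the medians were -0.46 and -0.22, near the values at these starts. For SLC2A3 the closest surroundings were less low. Over windows centred within 100 kb of its start the median was -0.17 for 100 kb windows and -0.03 for 50 kb windows. The start itself stood at -0.32 and -0.69. Around GAPDH and ENO1 the median within 1 Mb was -0.16 each. PKM had a median of -0.28 around it while its start stood at -0.11. Around PFKFB3 it was -0.26, against -0.21 at the start, and around LDHA -0.08, against -0.11. PDK1 had -0.38 around it and 0.17 at its start, but the median within 250 kb was 0.42, and changes at its level spread widely. The 2 members on the short arm of chromosome 10 lie 3.135 Mb apart, and between them the median change of measured 100 kb windows was -0.51, with 18 of 274 windows called lower, 10 of them measured ones. Chromosome 10 as a whole had a median of -0.07. GAPDH and SLC2A3 lie 1.445 Mb apart on chromosome 12. Between them the median was -0.19, with 1 of 121 windows called lower, while the chromosome had -0.15. Over the whole genome, 0.614% of all 100 kb windows and 1.55% of measured ones were called lower. Windows of different sets overlap, so that a single region can be counted in several of them.

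**Figure D4:**
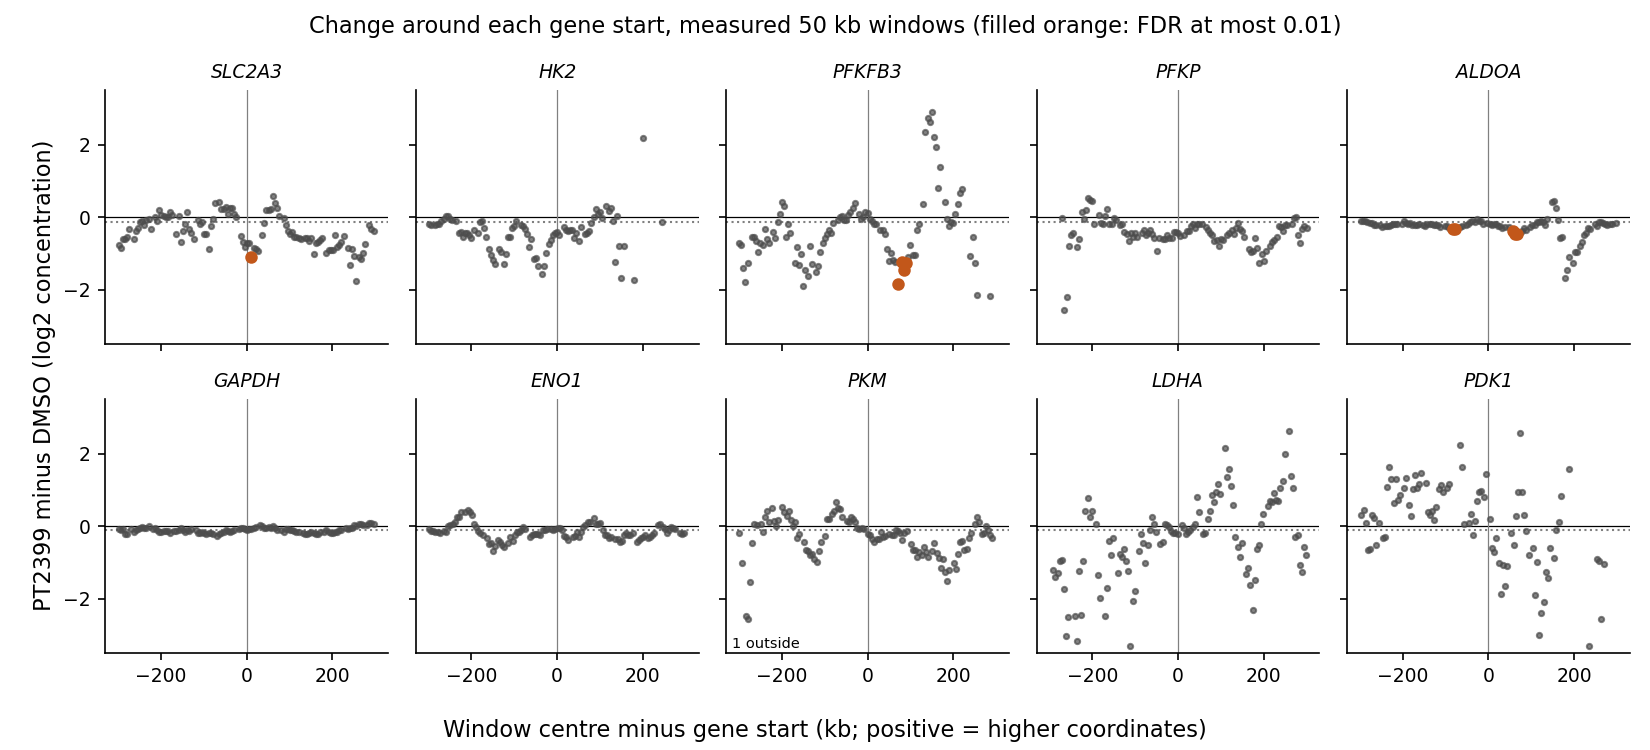
Change (PT2399 minus DMSO, log2 concentration) in measured 50 kb windows against the distance of the window centre from each gene start, up to 300 kb on either side; orange points have an FDR of 0.01 or less in the authors' tables, the dotted line is the median of measured windows, and 1 window of PKM lies outside the axis. The called windows lie at the SLC2A3 start, above that of PFKFB3 and on both sides of that of ALDOA, and LDHA and PDK1 scatter on both sides of 0.

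Most starts had a higher SON level than the bulk of their surroundings. The DMSO level at the start was above 97.8% of the 100 kb windows centred within 1 Mb for LDHA, 97.2% for PKM, 96.1% for ALDOA and for PFKFB3, and 93.9% for PFKP. For GAPDH, ENO1 and SLC2A3 it was above 92.8%, 88.9% and 77.2%, and the highest window lay 346, 841 and 999 kb from these starts. HK2, at 52.5%, and PDK1, at 56.1%, lay in the middle of their surroundings. The highest window around HK2, at 11.06, was centred 350 kb below the start. Around PFKFB3 35% of windows were at the floor in both treatments, around PFKP 28.2% and around HK2 19.3% of the 100 kb windows, while there were none around ALDOA, GAPDH, ENO1, PKM and SLC2A3.

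The wider pathway could be read only through the authors' gene lists, because positions on hg19 were at hand for the 10 members alone. Of the members, PFKP and ALDOA are in the 100 kb list of 1023 genes and SLC2A3 is in the 50 kb list of 258 genes. Of 38 further genes of glucose uptake, glycolysis and pyruvate handling, 2 are in the 100 kb list: SLC2A1, the transporter GLUT1, and PFKFB2, an isoform of the activator enzyme of PFKFB3. In the 50 kb list there is 1, SLC2A1. The 100 kb list holds 4.29% of the protein-coding genes that RefSeq names, and the 50 kb list holds 1.11% of them. The other hexokinase, aldolase, enolase, phosphoglycerate and lactate dehydrogenase genes of the 38 are in neither. Absence from a list does not show that a gene did not change, since small changes were not called in windows of low signal.

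The calls were sensitive to which windows entered the adjustment and to the shift shared by the measured genome. With the deposited p-values adjusted over measured windows only, ALDOA and PFKFB3 were called at 100 kb, while PFKP, at an adjusted value of 0.0116, and SLC2A3 at 50 kb, at 0.0102, just missed the threshold. After further subtraction of the measured-window median from every change, with errors implied by the deposited p-values, 0 of 10 members had a called window at either size. The changes in the called windows were then -0.96 at SLC2A3 in place of -1.09, -0.61 at PFKFB3 in place of -0.74, -0.41 at PFKP in place of -0.53 and -0.16 at ALDOA in place of -0.29. The lowest Benjamini-Hochberg adjusted value was 0.0688 for PFKFB3 and 0.0698 for SLC2A3, against 0.159 for PFKP and 0.211 for ALDOA. Both settings were chosen after seeing the data. It was not tested if the shared shift belongs to the chromatin or to how libraries were scaled.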

How the data were processed

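Per the submitters' processing notes, Bowtie2, Picard, DiffBind and bedtools were used on hg19; the sources used here do not give versions, settings, how reads were counted and scaled, or how inputs entered. Each window carries log2 concentrations for control, treatment and both, a log2 fold, a p-value and an FDR, per the file headers. The deposited fold is control minus treatment to within 0.01, so its sign was turned. Each treatment has the authors' mean only, with no standard deviation.

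The named genes were all 10 members, and other pathway genes only where a deposited list held them. Members and lists were chosen with earlier results of these data known. The deposited unit allowed no count test on libraries, so the authors' FDR at 0.01 was used. Measured windows had log2 values of 2 or more in each treatment. Windows of the same level lay within 0.25 of a window's mean in the same set. Genome positions for background shares were taken every 10 kb or 5 kb. For recentring, a window's error was its absolute change over the normal quantile of its p-value, with the median of 20 level bins where the change was under 0.1 or p was 0.5 or more. The adjustment and level comparison were tested on simulated data. Promoter windows and neighbours came from RefSeq, GRCh38.p14. Alternatives covered the FDR threshold, window placement and size, adjustment over all sets, centring and level width. Figures used matplotlib 3.10.9, and calculations scipy 1.17.1, pandas 2.3.3 and numpy 2.4.6 under Python 3.11.15.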

Additional observations from a re-analysis of the deposited data

How the results depend on the processing

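Starting from 3 members with a lower call at 100 kb and 1 at 50 kb, an FDR of 0.1 gave 5 and 2 and one of 0.001 gave 1 and 0. Requiring 5 of the 9 windows gave 0 and 0. With the start in the middle 50% of the window 1 member was left at 100 kb, PFKP. Adding the windows directly before and after gave 3 at 50 kb, SLC2A3, ALDOA and PFKFB3. Adjusting the deposited p-values over measured windows alone gave 2 and 0, as did implied errors over these windows, and recentring gave 0 at both sizes. The cause of these losses was not tested further. An FDR of 0.05 (4 and 1) and adjustment over all sets (3 and 1) stayed within 1.5 times, and higher calls were 0 throughout. The mean change turned to -0.06 at PDK1 (100 kb) and 0.03 at PFKFB3 (50 kb) with the start in the middle 50% of the window. Single window sets turned to 0.02 at PFKFB3 and 0.09 at PKM (100 kb), to 0.01 at SLC2A3, 0.02 at LDHA and 0.16 at PFKFB3 (50 kb), and to -0.41 and -1.01 at PDK1 (100 and 50 kb). Level widths of 0.1 and 0.5 moved the ALDOA percentile from 7.13 to 5.43 and 12.1 at 100 kb. Against the median of measured windows, LDHA, GAPDH and PKM at 100 kb and GAPDH and PFKFB3 at 50 kb changed sign. No paired analysis was possible because the tables analysed hold 1 value per treatment and no values per library, and for the same reason no replicate could be left out.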
